A study of Homo sapiens with 9 samples.

Results

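Annexins are proteins that attach to membranes when calcium is present, and 10 of their genes were described here across 9 RNA samples of MCF10A, an established human line of breast epithelium that does not form tumours. The members were chosen by symbol in a deposited expression table: ANXA1, ANXA2, ANXA3, ANXA4, ANXA5, ANXA6, ANXA7, ANXA8, ANXA9 and ANXA11, which are 10 of its 56609 gene symbols. Every member was found, and 9 of them passed a minimum mean of 1 TPM over the 9 samples. ANXA9 did not. TPM corrects for gene length and adds up to 1000000 in every library, so levels can be set side by side between genes, while sequencing depth is unknown.

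The samples form 3 groups of 3. Control cells were untreated. High calcium cells were given 10 mM calcium together with ionomycin, an ionophore that carries calcium across membranes (1 mM according to the labels, which was not checked), for 16 h. TGFb3 cells were given 10 nM transforming growth factor beta 3, a secreted cytokine, for 16 h. All groups were grown in medium with horse serum, EGF, hydrocortisone, cholera toxin and insulin. No group had calcium or ionomycin alone, and what each contributed cannot be told apart. Replicates carry a number, with no word on whether each was its own culture, and the spread that p-values rest on may therefore be technical. Both treatments share the same control samples.

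Annexins share a core of repeated segments that holds calcium between the protein and negatively charged lipids of the membrane, and each has an N-terminal tail of its own that binds partners. In epithelial cells they take part in vesicle traffic, in the link between membrane and actin, and in sealing of wounds in the plasma membrane, where calcium flowing in from outside draws them to the tear. ANXA2 pairs with S100A10, a small protein of the S100 family, and secreted ANXA1 signals through formyl peptide receptors.

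The cells carried the markers of their label. All 8 epithelial markers were detected, with summed levels of 3284 to 3439.6 TPM in control cells, 6384 to 6656 TPM in high calcium and 4759 to 5475 TPM in TGFb3. The lowest of them was KRT14, at 2.26 to 10.6, 15.9 to 28.6 and 13.4 to 26.6 TPM in the same order. KRT5 was at 1221 to 1299 TPM in control cells. The members did not all move with the sum: KRT17, a basal keratin, went from 1237 to 1337 TPM in control cells to 3486 to 3726 TPM in high calcium, while the integrin ITGA6 was at 288 to 303 and 216 to 221 TPM there. EPCAM, an epithelial adhesion protein, was at 277 to 306 TPM in control cells and 113 to 124 TPM in TGFb3. The leukocyte markers PTPRC and CD3E, the endothelial marker CDH5, the fibroblast collagen COL1A2 and the adipocyte hormone ADIPOQ were listed at 0 in all 9 samples. CD68, a lysosomal protein used as a macrophage marker, was at 1.36 to 3 TPM in control cells, 13.9 to 37.3 TPM in high calcium and 8.44 to 13.6 TPM in TGFb3. The endothelial list, with 1 of 4 genes (KDR) past the minimum, summed to 3.81 to 4.51, 6.96 to 7.19 and 1.54 to 2.12 TPM in the same order of groups. The fibroblast list, with 2 of 6 genes past the minimum, summed to 2.6 to 3.52, 9.94 to 12.5 and 28.3 to 31.9 TPM. These 2 were the collagen COL1A1, at 0.731 to 0.836, 1.72 to 3.93 and 13.6 to 17 TPM, and DCN, at 1.77 to 2.71, 7.52 to 8.16 and 12.2 to 14.9 TPM. Transcripts of the mitochondrial genome held 22.7 ± 0.914% of TPM in control cells, 11.5 ± 0.371% in high calcium and 22.7 ± 0.588% in TGFb3 (SD, n = 3). MALAT1, a nuclear RNA used as a gauge of RNA quality, was at 158 ± 44.7, 424 ± 32.2 and 204 ± 12.4 TPM. The part of these shifts in the annexin results was not tested, beyond scalings that leave mitochondrial genes out. In bulk RNA, fewer cells with a transcript and less of it per cell cannot be told apart.

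Annexin RNA made up a larger share of the library in both treated groups. The 10 members summed to 5067, 5153 and 4661 TPM in the 3 controls, to 7291, 7536 and 7718 TPM in high calcium and to 7085, 6929 and 6704 TPM in TGFb3. As a share of all TPM this was 0.496 ± 0.0263%, 0.752 ± 0.0215% and 0.691 ± 0.0191% (SD, n = 3), and the control samples lay below every treated one. Among RNA not encoded by mitochondria the shares were 0.642 ± 0.0294%, 0.849 ± 0.0266% and 0.894 ± 0.0234%, so which treated group stood higher depended on whether mitochondrial RNA was counted. These sums were not tested, because they add up chosen genes. ANXA2 alone gave 60.5 ± 0.152% of the sum in control cells, 53.6 ± 0.489% in high calcium and 63.8 ± 0.402% in TGFb3. ANXA3 gave 7.38 ± 0.291% in control cells, 14.2 ± 0.675% in high calcium and 6.12 ± 0.178% in TGFb3.

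**Figure D1:**
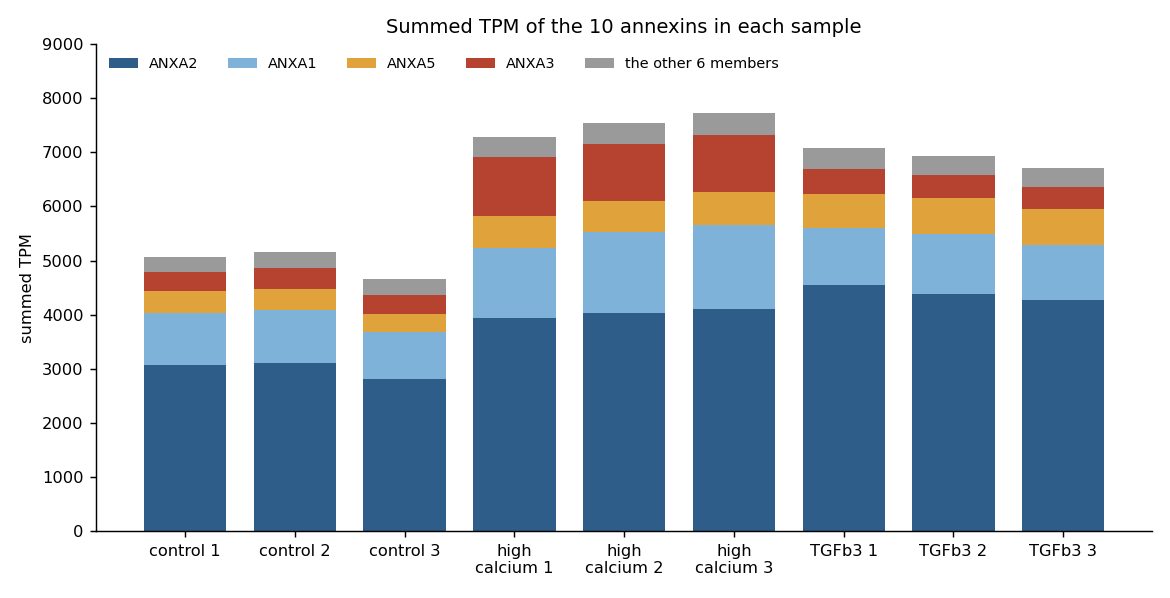
Stacked bars give the summed TPM of the 10 annexins in each of the 9 samples, with ANXA2, ANXA1, ANXA5 and ANXA3 drawn apart from the other 6 members. The controls reach 4661 to 5153 TPM and all 6 treated samples reach 6704 or more, and the band of ANXA3 is widest in the high calcium samples.

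The order of the members was the same at its top in every group and shifted below. In control cells it ran ANXA2, ANXA1, ANXA5, ANXA3, ANXA7, ANXA8, ANXA11, ANXA4, ANXA6 and ANXA9 by mean TPM. There ANXA5 and ANXA3 overlapped, as did each neighbouring pair from ANXA7 to ANXA4, while all other neighbours lay apart. In high calcium ANXA3 stood above ANXA5 with no overlap, and only ANXA8 and ANXA11 overlapped among neighbours. In TGFb3 ANXA5 stood above ANXA3, ANXA8 moved up to the position after ANXA3, and only ANXA4 and ANXA11 overlapped. This move holds for the ANXA8 entry alone, whose split from its near-identical copy ANXA8L1 is uncertain. Summed with that copy it was at 112 ± 6.08, 152 ± 4.19 and 287 ± 8.87 TPM in control, high calcium and TGFb3. ANXA7 was at 79.7 ± 2.55, 128 ± 1.93 and 88.5 ± 3.17 TPM, so the summed pair stood above it in every group. ANXA2 ranked between 26 and 27 among all 56609 symbols in control cells, between 17 and 18 in high calcium and between 20 and 21 in TGFb3.

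**Figure D2:**
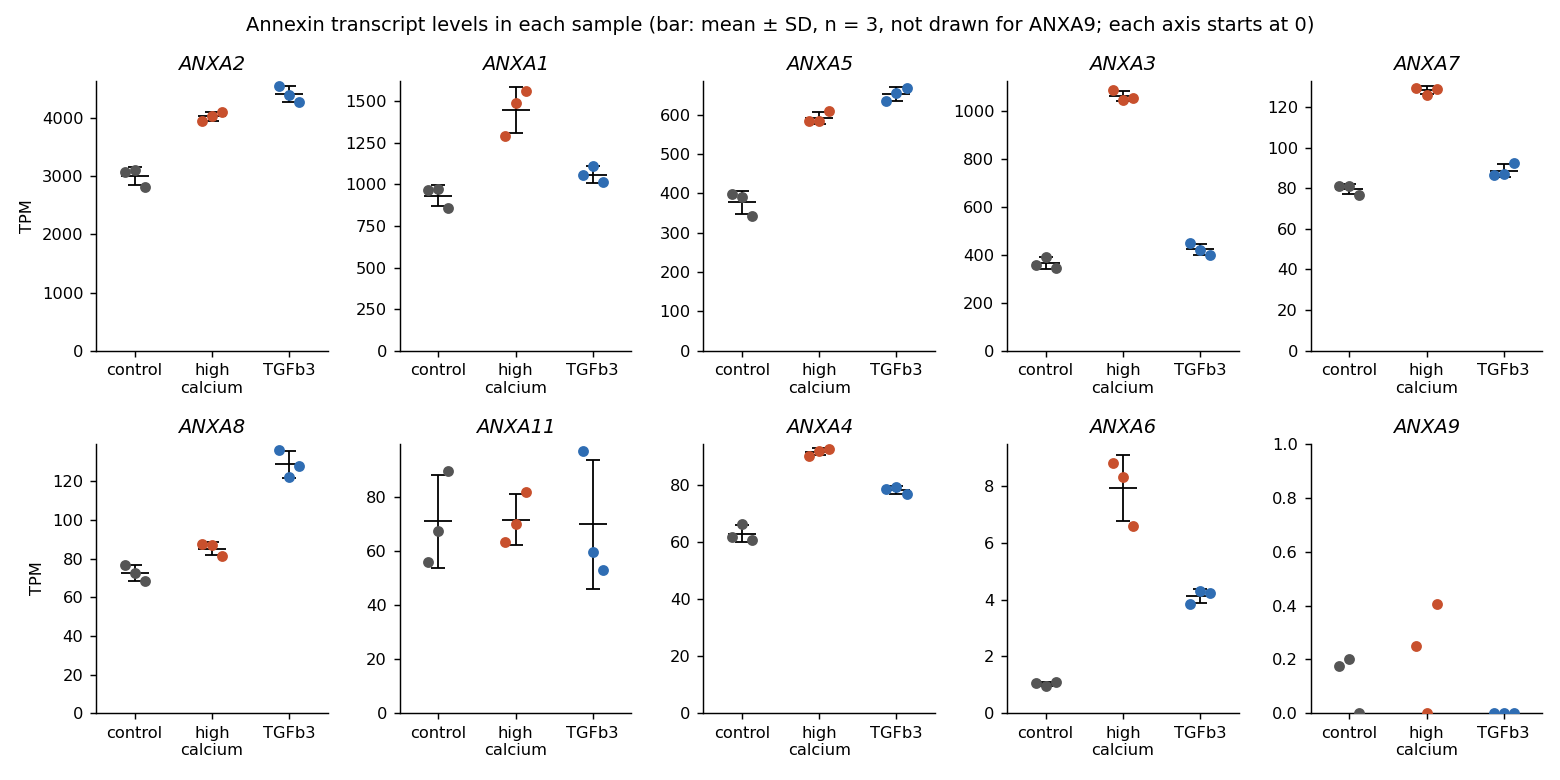
Each panel gives the TPM of an annexin in the 9 samples by group, with points for samples and bars for the mean ± SD of 3 samples. For 8 of the 10 members the treated samples lie above every control, while the 3 groups overlap for ANXA11 and ANXA9 stays below 0.41 TPM.

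High calcium against control asked how the cells respond to raised calcium, a state that the title of the series places beside milk stasis and lysosome-dependent death of cells. Of the 9 tested members 8 rose, 0 fell and ANXA11 was not called, at a Benjamini-Hochberg adjusted p under 0.05 from limma, a linear model across all genes. Of all 13968 tested genes 46.1% were called higher, 17% lower and 63.1% in either direction. The groups did not overlap for those 8 members, nor for 69% of all tested genes. The median log2 difference was 0.63 over the tested annexins and 0.22 over all tested genes, and 8 of the 9 lay above that overall median. After median ratio rescaling, quantile normalisation or removal of mitochondrial genes 7 rose and 0 fell, with 30.2%, 28.6% and 32.3% of all genes called higher and 30%, 32% and 26.4% lower. Among all calls 73% were higher in TPM as deposited and 50.2%, 47.2% and 55.1% under these scalings.

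In TGFb3 against control, which asked how the cytokine acts on the same cells, 7 of the 9 tested annexins rose, 0 fell, and ANXA1 and ANXA11 were not called by limma. Of all tested genes 26.5% were called higher, 33.1% lower and 59.6% in either direction. The groups did not overlap for 8 members, ANXA1 included, nor for 63.8% of all tested genes. The median log2 difference was 0.31 over the annexins and -0.06 over all tested genes, and all 9 tested members lay above that overall median. The direct comparison of high calcium with TGFb3 called 5 annexins higher in high calcium and 2 lower, with 50.4% and 16.2% of all genes called in those directions and 66.5% in either. After median ratio rescaling 3 annexins were higher and 3 lower, with 30% and 30.3% of all genes called in those directions, after quantile normalisation 5 and 2 (31.2% and 29.9%), and without mitochondrial genes 4 and 3 (35.5% and 24.1%). Among all calls 75.7% were higher in high calcium in TPM as deposited and 49.7%, 51.1% and 59.5% under these scalings. The groups did not overlap for 8 members, nor for 71.2% of all tested genes. Its median was 0.22 over the annexins and 0.27 over all tested genes.

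**Figure D3:**
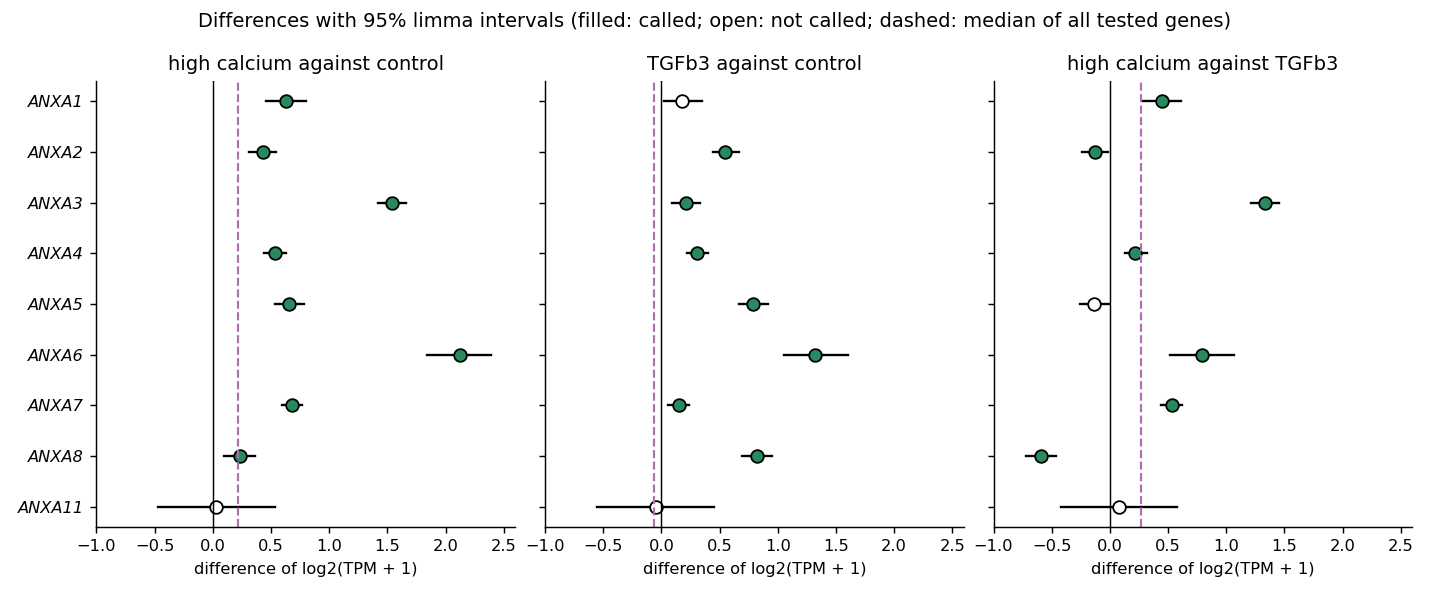
Points give the log2 difference of TPM + 1 for the 9 tested annexins in the 3 comparisons, with 95% limma intervals. Filled points passed an adjusted p under 0.05, and the dashed line marks the median of all tested genes, at 0.22, -0.06 and 0.27. ANXA6 and ANXA3 lie farthest to the right in high calcium, and ANXA2, ANXA5 and ANXA8 lie left of 0 against TGFb3, where ANXA2 stood at 0.29 after quantile normalisation.

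ANXA2 (ENSG00000182718.16, chromosome 15, 60347134 to 60402883, minus strand), which bridges membranes and actin, was the most abundant member. It was at 3072, 3109 and 2816 TPM in control cells, at 3946, 4036 and 4103 TPM in high calcium and at 4547, 4391 and 4272 TPM in TGFb3. The 3 groups did not overlap. ANXA2 rose by log2 0.43 ± 0.051 (SE) in high calcium (adjusted p = 4.4e-05) and by 0.55 ± 0.051 in TGFb3 (adjusted p = 6.8e-06). The rise in high calcium was 0.19 after median ratio rescaling (adjusted p = 0.028), 0.23 without mitochondrial genes and 0.65 after quantile normalisation, and the rise in TGFb3 was 0.36 after quantile normalisation. Between the treatments the log2 difference was -0.13 ± 0.051 (adjusted p = 0.046), a call that did not hold widely. It was -0.42 after median ratio rescaling and -0.32 without mitochondrial genes, turned to 0.29 after quantile normalisation (adjusted p = 9e-05) and was lost when any of the 3 high calcium samples, control 1, TGFb3 1 or TGFb3 2 was left out (adjusted p = 0.056 to 0.13). The processed pseudogene ANXA2P2 shares sequence with it. Of its windows of 101 bases, the length of a read, 30.8% also occur in ANXA2 transcripts of GENCODE release 29, against 2.68% of the windows of ANXA2. Its entry was at 6.74 ± 0.81, 10.7 ± 0.997 and 9.61 ± 1.7 TPM, and ANXA2P1, ANXA2P2 and ANXA2P3 together came to 0.233 ± 0.0423% of ANXA2 in control cells.

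S100A10 (chromosome 1, 151982915 to 151994390, minus strand), the partner that holds a pair of ANXA2 molecules together, rose further than ANXA2 in TGFb3. It was at 927, 887 and 879 TPM in control cells, 1372, 1363 and 1415 TPM in high calcium and 2343, 2381 and 2209 TPM in TGFb3. Its rise was log2 0.62 ± 0.042 in high calcium (adjusted p = 7.8e-07) and 1.36 ± 0.042 in TGFb3 (adjusted p = 5.5e-09, limma). The ratio of ANXA2 to S100A10 in TPM was 3.31, 3.51 and 3.2 in control cells, 2.88, 2.96 and 2.9 in high calcium and 1.94, 1.84 and 1.93 in TGFb3. No sample of a group overlapped with those of another. On the log2 scale the ratio dropped by 0.20 in high calcium and by 0.81 in TGFb3, and it was 0.61 higher in high calcium than in TGFb3. Each of the 3 comparisons had a two-sided exact permutation p of 0.1 (adjusted p = 0.1), and groups of 3 cannot reach a lower value. These ratios use TPM as deposited and were not computed after quantile normalisation. Under that scaling ANXA2 rose by 0.65 in high calcium and S100A10 by 0.40, so the drop there did not hold. In TGFb3 the rises were 0.36 for ANXA2 and 1.27 for S100A10 under that scaling.

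**Figure D4:**
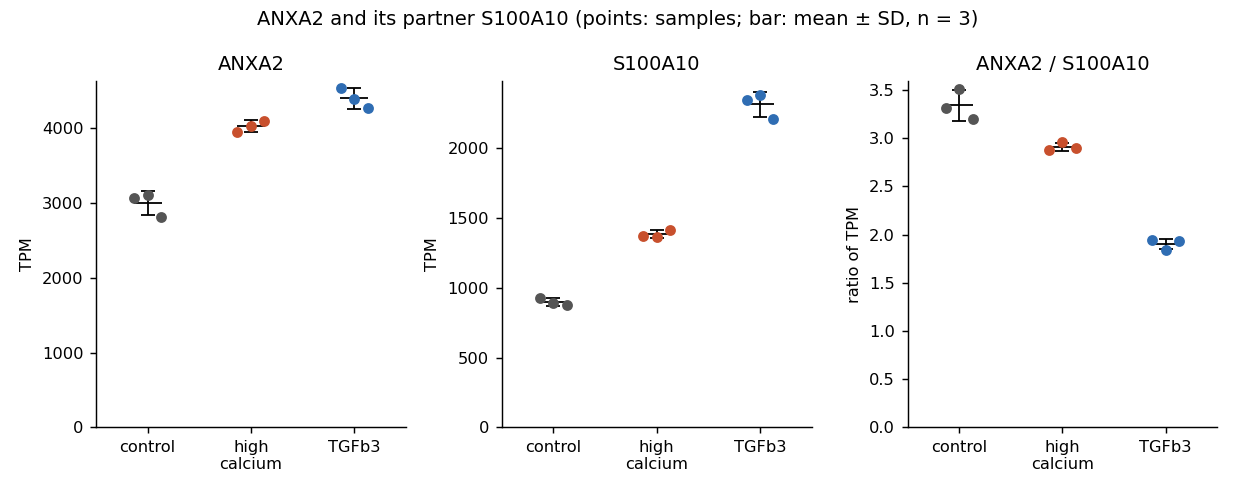
Panels give the TPM of ANXA2, the TPM of S100A10 and the ratio of the first to the second in the 9 samples, with the mean ± SD of 3 samples. The ratio is 3.34 ± 0.153 in control cells, 2.91 ± 0.0441 in high calcium and 1.91 ± 0.0536 in TGFb3.

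ANXA1 (ENSG00000135046.13, chromosome 9, 73151757 to 73170393, plus strand), a glucocorticoid-regulated protein that dampens inflammation, was second in abundance. It was at 964, 971 and 860.3 TPM in control cells, at 1293, 1486 and 1560.2 TPM in high calcium and at 1054, 1109 and 1011 TPM in TGFb3. High calcium samples lay above all others. ANXA1 rose by log2 0.63 ± 0.075 in high calcium (adjusted p = 4.4e-05, limma), and by 0.39 after median ratio rescaling. In TGFb3 its difference was 0.18 ± 0.075 (95% interval 0.02 to 0.35, adjusted p = 0.056), although the groups did not overlap, and 5 of 18 alternatives called it higher, while it was 0.10 after quantile normalisation. It was higher in high calcium than in TGFb3 by log2 0.45 ± 0.075 (adjusted p = 0.00042), a call lost after median ratio rescaling (0.16, adjusted p = 0.14) and at 0.25 without mitochondrial genes.

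ANXA5 (ENSG00000164111.14, chromosome 4, 121667955 to 121697113, minus strand), which binds phosphatidylserine and assembles into lattices on membranes, rose in both treatments. It was at 397, 391 and 342 TPM in control cells, at 583, 584 and 609.6 TPM in high calcium and at 634, 655 and 667 TPM in TGFb3. The groups lay apart. ANXA5 rose by log2 0.65 ± 0.056 in high calcium (adjusted p = 4.4e-06), or 0.41 after median ratio rescaling, and by 0.79 ± 0.056 in TGFb3 (adjusted p = 1.1e-06). Its log2 difference between high calcium and TGFb3 was -0.14 ± 0.056 (adjusted p = 0.051). The 3 other scalings called it lower in high calcium, at -0.43 by median ratio, -0.26 by quantile and -0.33 without mitochondrial genes.

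ANXA3 (ENSG00000138772.12, chromosome 4, 78551519 to 78610451, plus strand), an inhibitor of phospholipase A2 in vitro, stood apart from the other abundant annexins in high calcium. It was at 358, 393 and 347 TPM in control cells, at 1089, 1048 and 1054 TPM in high calcium and at 448, 421 and 401 TPM in TGFb3. Every high calcium sample lay far above every other sample. ANXA3 rose by log2 1.54 ± 0.055 in high calcium (adjusted p = 1.1e-08), a 2.91-fold change of TPM + 1 that ranked 522 of 13968 tested genes. In TGFb3 it rose by 0.21 ± 0.055 (adjusted p = 0.008, limma), and it was higher in high calcium than in TGFb3 by 1.33 ± 0.055 (adjusted p = 2.5e-08). The ratio of ANXA3 to ANXA5 in TPM was 0.974 ± 0.0637 in control cells, 1.8 ± 0.069 in high calcium and 0.65 ± 0.0531 in TGFb3 (SD, n = 3).

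ANXA6 (ENSG00000197043.13, chromosome 5, 151100712 to 151157882, minus strand), which has a pair of joined annexin cores where other members have a single core, had the lowest level among tested members and the largest differences from the control. It was at 1.07, 0.959 and 1.1 TPM in control cells, at 8.8, 8.32 and 6.59 TPM in high calcium and at 3.83, 4.29 and 4.23 TPM in TGFb3. The 3 groups did not overlap. ANXA6 rose by log2 2.12 ± 0.12 in high calcium (adjusted p = 2.7e-07) and by 1.32 ± 0.12 in TGFb3 (adjusted p = 7.6e-06, limma), and was 0.79 ± 0.12 higher in high calcium than in TGFb3 (adjusted p = 0.00025), or 0.48 after quantile normalisation. Adding 1 TPM to such low values shrinks the differences: with a pseudocount of 0.1 the rise in high calcium was 2.80 and that in TGFb3 was 1.88.

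The promoters of ANXA3, ANXA6 and ANXA8L1 are shown because these genes showed the largest called differences: ANXA3 among abundant members in high calcium, ANXA6 among all tested members in both treatments, and ANXA8L1 among all entries with an annexin symbol in TGFb3. RefSeq (GRCh38.p14) gave 13 start sites for 9 of the 10 members. The 250 bases before each start were searched on both strands for 9 motifs. These were the TATA box (TATAAA, found in 10.7% of all 35116 RefSeq promoters of this length), the CCAAT box (32%), the GC box (GGGCGG, 42.6%), the AP-1 site (TGANTCA, 6.57%) and the cyclic AMP element (TGACGTCA, 1.65%). The others were a short SMAD motif (CAGACA, 13.6%), the E-box (CACGTG, 6.34%), the NFAT core (GGAAAA, 21.2%) and the ATF4 element (TGATGNAA, 3.14%). Matches of different motifs were allowed to overlap. Capitals mark matches, and lines run 5′ to 3′ on the strand of the gene.
ANXA3, chr4:78551520-78551769, plus strand: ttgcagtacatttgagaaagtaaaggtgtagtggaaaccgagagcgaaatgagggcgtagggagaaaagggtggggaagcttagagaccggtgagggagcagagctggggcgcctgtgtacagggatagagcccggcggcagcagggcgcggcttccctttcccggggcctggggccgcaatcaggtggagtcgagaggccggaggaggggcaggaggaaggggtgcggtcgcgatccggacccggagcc
ANXA6, chr5:151157780-151158029, minus strand: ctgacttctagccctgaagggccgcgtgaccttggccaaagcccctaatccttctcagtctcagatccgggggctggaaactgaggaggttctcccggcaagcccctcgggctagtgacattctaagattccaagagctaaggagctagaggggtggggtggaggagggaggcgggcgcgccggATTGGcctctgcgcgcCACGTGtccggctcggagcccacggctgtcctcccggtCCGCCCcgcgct
ANXA8L1, chr10:46375526-46375775, plus strand: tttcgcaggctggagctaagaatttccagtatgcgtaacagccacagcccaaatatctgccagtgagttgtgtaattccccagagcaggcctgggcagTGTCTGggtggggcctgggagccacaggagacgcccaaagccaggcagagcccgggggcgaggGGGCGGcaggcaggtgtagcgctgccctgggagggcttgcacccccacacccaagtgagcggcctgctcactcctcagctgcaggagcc

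ANXA3 held 0 of the 9 motifs in this window. Starts here are those of RefSeq, and they differ from the GENCODE gene spans given for each member. The ANXA3 window lies wholly inside its GENCODE span, so bases before the GENCODE start of ANXA3 were not searched. The windows shown for ANXA6 and ANXA8L1 lie partly inside their GENCODE spans. RefSeq gave ANXA6 another start, whose window (chromosome 5, 151141685 to 151141934, minus strand) also held 0, and the window shown was chosen after the motifs were searched. That window of ANXA6 held 1 CCAAT box, 1 E-box and 1 GC box. ANXA8L1 held 1 short SMAD motif and 1 GC box. The short SMAD motif also occurred in windows not shown: 1 match at a start of ANXA4 and 2 at that of ANXA9. A match is a description of letters and was not tested as a binding site.

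ANXA4 (ENSG00000196975.15, chromosome 2, 69644425 to 69827100, plus strand), an annexin of secretory epithelia, rose in both treatments with little spread. It was at 61.9, 66.2 and 60.7 TPM in control cells, at 90.2, 91.9 and 92.5 TPM in high calcium and at 78.6, 79.3 and 76.8 TPM in TGFb3. ANXA4 rose by log2 0.53 ± 0.042 in high calcium (adjusted p = 2.4e-06) and by 0.31 ± 0.042 in TGFb3 (adjusted p = 0.00012). The rise in high calcium was 0.30 after median ratio rescaling and 0.34 without mitochondrial genes. High calcium stood above TGFb3 by 0.22 ± 0.042 (adjusted p = 0.00097). That difference was -0.06, -0.0034 and 0.03 under the 3 other scalings and not called there. Reads from AAK1, which overlaps it on the opposite strand, could have been split between these entries, since the strandedness of the libraries is not given in the sources used here.

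ANXA7 (ENSG00000138279.15, chromosome 10, 73375101 to 73414076, minus strand), which promotes membrane fusion and binds sorcin, was at 80.9, 81.3 and 76.7 TPM in control cells. It was at 129.6, 126 and 129 TPM in high calcium and at 86.3, 87.1 and 92.2 TPM in TGFb3, with no overlap between the 3 groups. ANXA7 rose by log2 0.68 ± 0.041 in high calcium (adjusted p = 3.9e-07) and by 0.15 ± 0.041 in TGFb3 (adjusted p = 0.01), and was 0.53 ± 0.041 higher in high calcium than in TGFb3 (adjusted p = 2.1e-06, limma). After median ratio rescaling the rise in high calcium was 0.44 and the difference between the treatments 0.24, and the latter was 0.33 both after quantile normalisation and without mitochondrial genes. ANXA7 was called higher in each of these.

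ANXA11 (ENSG00000122359.17, chromosome 10, 80150889 to 80205572, minus strand), a tether between RNA granules and lysosomes, was the tested member whose samples varied most within a group. It was at 56, 67.4 and 89.6 TPM in control cells, at 63.4, 69.9 and 81.8 TPM in high calcium and at 97.2, 59.6 and 52.9 TPM in TGFb3. All 3 groups overlapped. Its log2 differences were 0.03 (95% interval -0.47 to 0.53) in high calcium, -0.05 (-0.55 to 0.45) in TGFb3 and 0.08 (-0.42 to 0.58) between the treatments, with adjusted p = 0.91, 0.87 and 0.77 from limma. Its pooled SD within groups was 0.345 on the log2 scale, larger than that of 98.7% of the 8711 tested symbols that averaged 10 TPM or more. The other tested annexins had values of 0.0413 to 0.124, and the median of those symbols was 0.0852. A change smaller than these intervals was not detectable for ANXA11.

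ANXA8 (ENSG00000265190.6, chromosome 10, 47460162 to 47484158, minus strand), which acts at late endosomes, has a near-identical copy, ANXA8L1 (ENSG00000264230.7, chromosome 10, 46375627 to 46391784, plus strand). Their longest coding sequences in GENCODE release 29 are each 1098 bases long and differ at 5 of them (T16G, C390T, A642G, G644C and T1053C), which leaves 99.54% identity. Positions count from the first base of the start codon, with the base of ANXA8 first. Stretches around 3 of the differences are shown as examples of how the copies differ. Over all annotated transcripts they also hold further sequence that is not shared. Capitals mark the bases that differ, and each pair covers coding bases 370 to 410 or 622 to 662.
ANXA8, chr10:47477106-47477146, minus strand: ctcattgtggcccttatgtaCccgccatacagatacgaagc
ANXA8L1, chr10:46382627-46382667, plus strand: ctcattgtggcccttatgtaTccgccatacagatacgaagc
ANXA8, chr10:47474949-47474989, minus strand: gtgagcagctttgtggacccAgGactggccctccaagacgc
ANXA8L1, chr10:46384789-46384829, plus strand: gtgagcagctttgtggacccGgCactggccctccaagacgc

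Over all annotated transcripts 38.4% of the windows of 101 bases of ANXA8 also occur in ANXA8L1, and 66.3% of those of ANXA8L1 also occur in ANXA8. How reads that fit both were divided is not given in the sources used here, so the separate values of this pair are uncertain. Apart from ANXA2, ANXA7 (0.338%) and ANXA8, no member shared any such window with another gene.

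ANXA8 was at 76.9, 72.5 and 68.4 TPM in control cells, at 87.4, 86.8 and 81.5 TPM in high calcium and at 136, 122 and 128 TPM in TGFb3. The 3 groups did not overlap. ANXA8 rose by log2 0.82 ± 0.057 in TGFb3 (adjusted p = 9.7e-07), the second largest rise there among tested members after ANXA6. In high calcium it rose by 0.23 ± 0.057 (adjusted p = 0.0053), which equals the median shift of all genes to within 0.01. That call was lost under the 3 other scalings, at -0.01 by median ratio, 0.06 by quantile and 0.04 without mitochondrial genes. High calcium was below TGFb3 by log2 -0.59 ± 0.057 (adjusted p = 9e-06, limma), or -0.91 with the copies summed.

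ANXA8L1 moved further than ANXA8 in the same samples. It was at 40, 42 and 36.9 TPM in control cells, at 62.9, 70.4 and 68.2 TPM in high calcium and at 161, 159 and 153 TPM in TGFb3. ANXA8L1 rose by log2 1.97 ± 0.058 in TGFb3 (adjusted p = 4.1e-09, ranked 206 of 13968 tested genes) and by 0.75 ± 0.058 in high calcium (adjusted p = 2.1e-06, limma). The ratio of ANXA8L1 to ANXA8 was 0.52, 0.579 and 0.54 in control cells, 0.719, 0.811 and 0.837 in high calcium and 1.18, 1.31 and 1.19 in TGFb3. This ratio was chosen after its values were seen and was not tested. Summed, the copies were at 112 ± 6.08, 152 ± 4.19 and 287 ± 8.87 TPM, with log2 differences of 0.44 in high calcium (adjusted p = 2.1e-05) and 1.35 in TGFb3 (adjusted p = 1.1e-08).

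The noncoding entry AC245041.2 (chromosome 10, 47908064 to 47991850, minus strand), named after its values were seen, shares 34.9% of its windows of 101 bases with ANXA8. It was at 26.6, 31.1 and 30.9 TPM in control cells, at 21.6, 22.4 and 20.2 TPM in high calcium and at 57.7, 64.5 and 59.6 TPM in TGFb3. Its entry rose with that of ANXA8 in TGFb3 (log2 1.02 ± 0.073, adjusted p = 1.2e-06) and fell in high calcium (log2 -0.44 ± 0.073, adjusted p = 0.00041, limma). Over all other genes 54.9% of the windows of ANXA8 are shared. How reads that fit both entries were divided is not given, so the values of AC245041.2 are uncertain too. The summed copies leave this entry out.

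**Figure D5:**
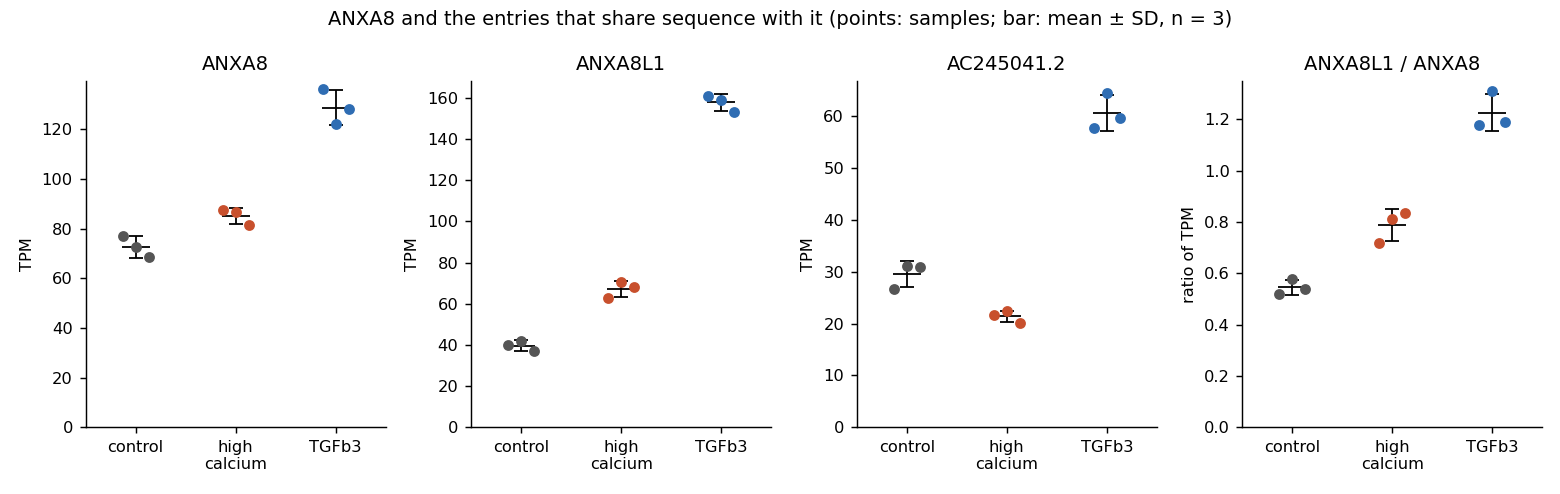
Panels give the TPM of ANXA8, ANXA8L1 and AC245041.2 and the ratio of ANXA8L1 to ANXA8 in the 9 samples, with the mean ± SD of 3 samples. All 3 entries are highest in TGFb3, and the ratio is 0.546 ± 0.0301 in control cells, 0.789 ± 0.062 in high calcium and 1.23 ± 0.0682 in TGFb3.

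The remaining annexins were at or near 0. ANXA9 (ENSG00000143412.9, chromosome 1, 150982017 to 150995634, plus strand), an annexin with an altered calcium-binding core, was listed at 0.175, 0.203 and 0 TPM in control cells, 0.249, 0 and 0.404 TPM in high calcium and 0 in all 3 TGFb3 samples. ANXA10, a gastric annexin, reached at most 0.24 TPM, and ANXA13, an annexin of the gut, was listed at 0 in all 9 samples. Without depth these values do not show whether the genes were off.

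By the distance between centred log2 profiles over the 9 samples (root mean square), the 3 nearest of 7782 named genes with a mean of at least 10 TPM were taken for each of the 3 annexins that changed most. For ANXA3 they were SESN2, a stress-induced regulator of growth signalling (0.070), NFE2L1, a transcription factor for proteasome genes (0.071), and PDIA6, a protein disulfide isomerase of the endoplasmic reticulum (0.072). PDIA6 was at 279 ± 5.07, 891 ± 4.71 and 339 ± 7.47 TPM in control, high calcium and TGFb3. For ANXA6 they were VSTM2L (0.146), the stress protein NUPR1 (0.163) and MGLL, monoglyceride lipase (0.173). NUPR1 was at 8.28 ± 1.17, 35.9 ± 1.28 and 21.1 ± 3.22 TPM. For ANXA8 they were PLIN3, a lipid droplet coat protein (0.073), MSN, the membrane-actin linker moesin (0.078), and S100A11 (0.078), with S100A11 at 1403 ± 13.7, 1754 ± 44.6 and 2519.6 ± 71.7 TPM. These distances use log2(TPM + 1), which shrinks the differences of ANXA6 more than those of the genes named beside it. Genes as low as ANXA6 itself were left out.

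Partners of annexins moved in both directions. Counts for the partners and the lists below stand beside shares of all tested genes. In high calcium 46.1% of all were called higher and 17% lower, with a median log2 difference of 0.22. In TGFb3 26.5% and 33.1% were, with a median of -0.06, and directly compared 50.4% and 16.2%, with 0.27. After median ratio rescaling the shares were 30.2% and 30% in high calcium and 29.3% and 30.4% in TGFb3. Directly compared they were then 30% and 30.3%. Of 19 listed partners 13 were tested. In high calcium 7 rose and 3 fell (6 and 4 after median ratio rescaling), with a median log2 difference of 0.32. Gelsolin (GSN), which severs actin, rose from 4.05 ± 1.38 to 30 ± 0.438 TPM, S100A4 by log2 1.53 ± 0.15 and S100A6, which binds ANXA11, from 1399 ± 46.8 to 2322 ± 58.2 TPM. PLA2G4A, the phospholipase that ANXA1 can inhibit, fell from 17.5 ± 1.83 to 7.22 ± 0.331 TPM.

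In TGFb3 7 of the 13 tested partners rose and 4 fell, with a median of 0.46. GSN rose there as well, to 22.2 ± 3.17 TPM (log2 2.23 ± 0.18, adjusted p = 2.9e-06, limma). S100A11, the partner of ANXA1, rose by log2 0.84 ± 0.039 (adjusted p = 6.6e-08) and AHNAK, a large scaffold that binds the ANXA2 complex, by 0.62 ± 0.083. PLA2G4A fell to 3.97 ± 0.873 TPM, and S100A6 fell to 1164 ± 19.5 TPM. PDCD6, which binds ANXA7 and ANXA11, fell from 94.2 ± 3.5 to 68.5 ± 2.77 TPM. Directly compared, 5 partners were higher in high calcium and 6 lower (4 and 7 after median ratio rescaling), S100A6 by log2 1.00 ± 0.04 and S100A10 by -0.74 ± 0.042. Of the formyl peptide receptors, FPR2 and FPR3 were listed at 0 in every sample and FPR1 reached at most 0.58 TPM.

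Of 18 listed genes of plasma membrane repair 12 were tested. In high calcium 7 rose and 1 fell (5 and 4 after median ratio rescaling), with a median of 0.26. SMPD1, the acid sphingomyelinase, rose from 3.12 ± 0.0534 to 12.9 ± 0.222 TPM and MYOF, a ferlin that fuses membranes, from 173 ± 5.95 to 286 ± 3.42 TPM. CAV1, the caveolin, fell from 418 ± 9.45 to 231 ± 3.6 TPM. In TGFb3 8 rose and 2 fell, with a median of 0.34. SMPD1 rose there too, to 8.42 ± 0.931 TPM, and CAV1 fell there too, to 323 ± 5.64 TPM. CAVIN1, a caveolar coat protein, rose from 106 ± 4.87 to 171 ± 10.4 TPM, EHD1, a membrane-remodelling ATPase, rose by log2 0.90 ± 0.12, and MYOF fell to 152 ± 5.36 TPM. Between the treatments 2 were higher and 4 lower in high calcium (2 and 9 after median ratio rescaling), with MYOF higher by log2 0.91 ± 0.04 and EHD1 at -1.04 ± 0.12.

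ANXA5 binds phosphatidylserine once scramblases bring that lipid to the cell surface, and flippases return it. Of 16 such genes 12 were tested. In high calcium 7 rose and 1 fell (3 and 2 after median ratio rescaling), and in TGFb3 8 rose and 2 fell, with medians of 0.27 and 0.24. ANO6, a scramblase opened by calcium, rose from 33.4 ± 0.38 to 75.4 ± 0.785 TPM in TGFb3 and was at 45 ± 0.367 TPM in high calcium, a log2 difference of -0.73 ± 0.038 between the treatments. The flippase ATP8A1 fell in TGFb3 from 2.99 ± 0.589 to 0.805 ± 0.122 TPM. In high calcium ATP8A1 was called higher, at 4.57 ± 0.267 TPM, but not under the 3 other scalings. ATP8B2, of the same ATPase family, rose in high calcium from 0.134 ± 0.044 to 3.59 ± 0.22 TPM and in TGFb3 to 0.885 ± 0.104 TPM. Directly compared, 4 of these genes were higher and 4 lower in high calcium (3 and 7 after median ratio rescaling).

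ANXA1 is a known target of glucocorticoids, and hydrocortisone was in the medium of all groups. Of 8 listed glucocorticoid-responsive genes 5 rose and 1 fell in high calcium (5 and 2 after median ratio rescaling), with a median of 0.55, and 3 rose and 4 fell in TGFb3, with a median of -0.30. TSC22D3 rose in high calcium from 85.3 ± 2.6 to 165 ± 4.02 TPM and fell in TGFb3 to 31.9 ± 4.11 TPM. FKBP5 fell in both, from 582 ± 8.57 TPM to 309 ± 0.281 and 348 ± 16.2 TPM, while DUSP1 rose in both, from 153 ± 3.95 TPM to 280.1 ± 4.72 and 265 ± 4.3 TPM. Directly compared, 5 were higher and 2 lower in high calcium (4 and 4 after median ratio rescaling). Tests of these lists were not made, and their counts, as deposited and rescaled, stand beside the shares of all genes called given above for the same scaling.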

How the data were processed

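Per the labels' protocols, Trizol was used for RNA isolation, and a NovaSeq instrument gave paired reads of 101 bases. HISAT2 and hg38 are named in the submitters' processing notes; not given in the sources used here are the quantifier, its annotation release and the strandedness. TPM values come as the authors deposited them, in 1 table for 58288 gene entries in 9 samples, and 0 value columns were left unmapped. The 1932 entries that share 253 symbols were summed, which left 56609 symbols.

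The test scale was log2(TPM + 1), for 13968 symbols averaging 1 TPM or more, which understates changes of low genes. One limma 3.58.1 model (R 4.3.3, variance trend) took in all 9 samples and 3 groups, and p-values are two-sided and Benjamini-Hochberg adjusted over all tested symbols within each of 3 comparisons. Single ratios were compared by exact permutation. TPM keeps no depth, so counting error is unknown. Coordinates, 1-based, and shared windows came from GENCODE release 29 (hg38), matched by gene identifier without version. Each window of 101 bases in all transcripts of a gene was looked up on both strands in the transcripts of all other genes.

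The members and gene lists were chosen with earlier results of these data known. Named genes are all members, S100A10, other annexin entries, up to 4 called genes of each list in each direction (not all are named), and the genes nearest in pattern. One marker gene is not reported here. Of the methods, only the limma fit was tested on simulated data. The alternatives were pseudocounts of 0.1 and 0.5, no minimum, a minimum of 5 TPM, 3 other scalings, only the compared groups, a replicate block, near-identical copies summed and each sample left out. Tables and plots were made in Python 3.11.15 (pandas 2.3.3, matplotlib 3.10.9).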

Additional observations from a re-analysis of the deposited data

How the results depend on the processing

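Of 27 differences of single annexins (9 members in 3 comparisons), 18 kept their direction and their side of the threshold under every alternative run. The counts of annexins called against the control stayed within 7 to 8 higher and at 0 lower in both treatments. Between high calcium and TGFb3 the 5 called higher became 3 after median ratio rescaling, and the 2 called lower became 1 with no filter on low values and 1 to 3 when single samples were left out. With a replicate block that count was also 1, because ANXA2 lost its call (adjusted p = 0.073), and the block changed no other call of a member. No pairing by number was seen: same-numbered samples had correlations of deviations from -0.0747 to -0.00372, and the own number correlated best in 0 of 18 cases. With 3 samples a group this check cannot exclude a weak shared batch. For the ratio of ANXA2 to S100A10 the paired exact permutation p was 0.25, the smallest that 3 pairs can give, so neither form of the test could pass 0.05.

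Directions reversed for ANXA8 in high calcium against control (-0.01 after median ratio rescaling), for ANXA2 between the treatments (0.29 after quantile normalisation) and for ANXA4 between the treatments (-0.06 and -0.0034 after median ratio rescaling and quantile normalisation). The uncalled differences of ANXA11 changed sign with median ratio rescaling (-0.20 in high calcium, 0.00087 in TGFb3 and -0.21 between the treatments), quantile normalisation (-0.15 in high calcium and -0.14 between the treatments) and mitochondrial genes left out (-0.16 and -0.11). With single samples left out they ran from -0.12 to 0.21 in high calcium, from -0.31 to 0.13 in TGFb3 and from -0.09 to 0.34 between the treatments. The cause of these reversals was not tested.

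The annexin share of TPM moved to 0.642%, 0.849% and 0.894% in control, high calcium and TGFb3 with mitochondrial genes left out. It was 0.665% in high calcium and 0.747% in TGFb3 after median ratio rescaling, and 0.819% and 0.661% after quantile normalisation, so the order of the treated groups depends on the scaling. TPM holds no depth, which leaves the counting error of low genes such as ANXA6 and ANXA9 unknown.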
